A study of Mus musculus with 12 samples.

Results

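The genes described here are Kcns1, Tcam1, Syngr3, Mei1 and Zfr2, 5 of the 23102 genes measured. They were taken as mouse orthologues of genes known to be high in human papillomavirus (HPV)-positive head and neck cancer that belong neither to DNA replication nor to cohesin. The rule that picks them uses no measured value, but the genes were chosen with earlier results of these data known. The platform annotation gave them 68 of 269751 probesets, each assigned to that gene alone, with 5 probesets for Kcns1, 10 for Tcam1, 7 for Syngr3, 29 for Mei1 and 17 for Zfr2. For each tumour, the median log2 intensity of a gene's probesets was taken as its level.

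RNA came from 12 oral tumours of tamoxifen-treated C57BL/6 x FVB F1 mice, read on 1 array each. The 6 KHR tumours expressed RAS and a transgene written iHPV, for which a further label names HPV E6. The 6 KR tumours expressed RAS without that transgene. The sources used here do not give what the letters stand for, which promoter drives RAS or the viral gene, the age of the mice, or whether each tumour grew in a mouse of its own. The p-values below therefore reflect only how these samples vary, which may be technical. Viral transcripts were not analysed here. The squamous identity of the tissue was plain on all arrays: the mean of 12 keratinocyte markers lay between 11.68 and 11.95 in KHR tumours and between 11.70 and 11.84 in KR tumours (log2 intensity).

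High-risk HPV drives cells into the cell cycle through its E7 and E6 proteins, which inactivate the Rb family and send p53 to degradation. Human HPV-positive head and neck cancers are known for a raised replication programme and also for transcripts of germ cell and neural genes that squamous epithelium normally lacks. The 5 genes stand for the part of that second group that is neither replication nor cohesin. Kcns1 encodes Kv9.1, a potassium channel subunit that forms no channel alone and modifies Kv2 channels in neurons. Tcam1 encodes a cell adhesion molecule of the testis related to the ICAM proteins, and its human counterpart is a transcribed pseudogene. Syngr3 encodes synaptogyrin 3, a membrane protein of synaptic vesicles. Mei1 is required for the DNA double-strand breaks that start meiotic recombination. Zfr2 is a relative of the RNA-binding zinc finger gene Zfr.

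Of the 5 genes, Kcns1 was the 1 that rose in KHR tumours, about 2.19-fold. Tcam1 was higher on every KHR array than on any KR array but did not pass the test across all genes. Syngr3, Mei1 and Zfr2 had overlapping groups and did not pass either, and Zfr2 had the lower mean in KHR tumours. Over all genes, 3.74% passed in either direction and 2.71% passed as higher in KHR tumours (limma, adjusted p under 0.05), and a count of 1 in 5 genes is too small to be set against that share. The median change of the 5 genes was 0.08 on the log2 scale, against 0.0045 over all genes.

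**Figure D1:**
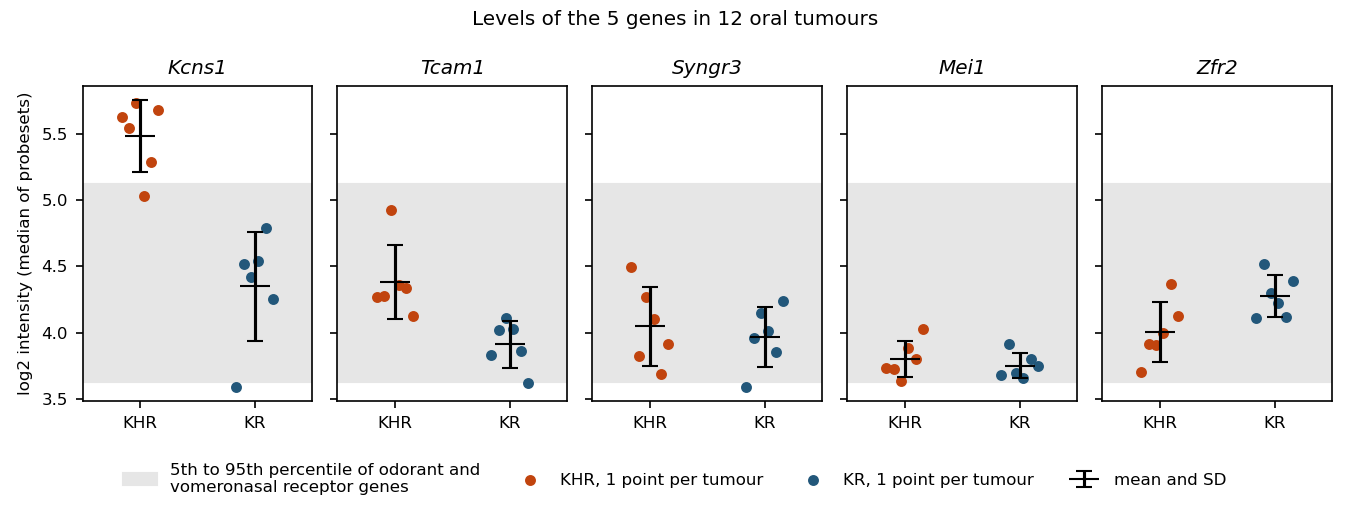
Levels of the 5 genes (log2 intensity, vertical axis) in the KHR tumours (left of each panel) and the KR tumours (right), 1 point per tumour, with the mean and SD of each group. The grey band runs from the 5th to the 95th percentile of odorant and vomeronasal receptor genes (3.62 to 5.12). The KHR points of Kcns1 lie between 5.03 and 5.73, above all KR points and mostly above the band, and those of Tcam1 lie between 4.12 and 4.93, just above the KR points.

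Detection calls were not used here, so the scale of dim readings was taken from 1384 odorant and vomeronasal receptor genes, which are not known to be active in oral epithelium. Their mean levels over the 12 arrays had a median of 4.14 and a 95th percentile of 5.12, and for their 2482 probesets the 95th percentile was 5.64. Probesets differ in affinity, so this range is a guide and not a limit of detection. None of the 5 genes had a mean level above the median of all genes (4.98). Averaged over all arrays, the levels of Tcam1, Syngr3, Mei1 and Zfr2 fell at the 50.3, 36.4, 13.6 and 49.6 percentiles of the receptor genes and that of Kcns1 at the 91.8 percentile. The size of a change at such levels is not exact.

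RefSeq windows that run from 250 bases before to 50 bases after an annotated transcript start in GRCm38.p6 were matched for 4 of the 5 genes, with 2 overlapping windows for Tcam1. The start used is the outer end of the annotated gene for Kcns1 and lies 30 bases inside it for Zfr2. It lies 3652 and 3702 bases inside the gene for Tcam1 and 12402 bases inside it for Mei1, so these windows are not of the outermost start. Those of Kcns1 and of the first Tcam1 start are shown because these genes had the largest changes. Capitals mark CACGTG, the E-box read by MAX and its partner MGA, which are known as repressors of germ cell genes in somatic cells.

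Kcns1, GRCm38.p6 chr2:164171064-164171363, minus strand: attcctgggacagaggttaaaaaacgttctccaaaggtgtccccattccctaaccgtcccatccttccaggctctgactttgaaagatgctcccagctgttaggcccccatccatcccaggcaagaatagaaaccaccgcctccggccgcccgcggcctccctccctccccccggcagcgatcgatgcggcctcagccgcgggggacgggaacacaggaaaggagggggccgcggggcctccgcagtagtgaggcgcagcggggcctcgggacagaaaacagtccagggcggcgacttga

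Tcam1, GRCm38.p6 chr11:106276422-106276721, plus strand: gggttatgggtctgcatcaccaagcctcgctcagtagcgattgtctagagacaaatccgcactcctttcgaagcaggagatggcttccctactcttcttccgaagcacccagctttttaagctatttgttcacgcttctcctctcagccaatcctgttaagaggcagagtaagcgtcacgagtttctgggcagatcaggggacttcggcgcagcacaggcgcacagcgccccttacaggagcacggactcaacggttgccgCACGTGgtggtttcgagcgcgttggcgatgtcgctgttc

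The motifs searched on both strands were the E2F sites TTTCCCGC and TTTGGCGC, the core TCCCGC, which E2F6 also reads and which lies within the first, and CACGTG. No window of these genes held either E2F site or TCCCGC, which were present in 1.07%, 0.514% and 20% of all 32851 windows. CACGTG, present in 7.15% of all windows, stood once in the Zfr2 window, 219 bases before the start, and was not in those of Kcns1 and Mei1. Both Tcam1 windows hold the same single CACGTG, 11 bases after the first start and 39 bases before the second. The windows of Kcns1 and Zfr2 held 22 CpG dinucleotides and each Tcam1 window 21, against 8 for Mei1 and a median of 7 over all windows (upper quartile 20). These matches describe the letters of the windows and say nothing of binding.

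Kcns1 levels in KHR tumours were 5.03 at the lowest, 5.58 at the median and 5.73 at the highest. In KR tumours they were 3.59, 4.47 and 4.79. Every KHR array lay above every KR array, and KR 1 stood lowest. All KHR arrays lay above all KR arrays for 1.83% of all genes. The means were 5.48 ± 0.27 in KHR tumours and 4.35 ± 0.41 in KR tumours (SD, n = 6 each). Kcns1 thus rose by 1.13 ± 0.18 on the log2 scale (SE; 95% confidence interval 0.74 to 1.52; adjusted p = 0.00347 in limma). The direction and the call held on leaving out any array (0.98 to 1.22, adjusted p up to 0.0107). The size depends on how the probesets are combined: the change was 0.72 with the mean over probesets (adjusted p = 0.00339) and 0.58 with median polish (adjusted p = 0.0155).

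All 5 probesets of Kcns1 had the higher mean in KHR tumours, 3 of them by about the same amount and 2 by less. Probeset 17394104 read 5.03 at the lowest, 5.58 at the median and 5.73 at the highest in KHR tumours, against 3.55, 4.47 and 4.79 in KR tumours, a change of 1.14 ± 0.20 (SE; adjusted p = 0.0209 over all probesets). This probeset was the gene's median on 11 of 12 arrays, so the value of the gene is mostly its reading. Probeset 17394105 read 6.35, 6.68 and 7.33 in KHR tumours and 5.38, 5.49 and 6.41 in KR tumours, a change of 1.06 ± 0.23 (adjusted p = 0.0476), and its groups overlapped through KR 1. Probeset 17394103 differed by 1.01 ± 0.29 (adjusted p = 0.135), although its KHR readings of 5.68 to 7.30 lay above its KR readings of 4.65 to 5.61. The remaining pair read low on all arrays. Probeset 17394106 differed by 0.36 ± 0.21 and 17394107 by 0.01 ± 0.12, with KHR readings of 3.44 to 4.77 and 3.27 to 3.73.

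Whether the probesets of Kcns1 changed by unequal amounts was tested with limma's diffSplice, which compares each probeset of a gene with the others. The test passed narrowly (F = 5.05, adjusted p = 0.0461), as it did for 3.53% of the 20799 genes with at least 2 probesets. No single probeset passed against the rest, and 17394107 came nearest, at -0.88 (adjusted p = 0.0913). The call was lost with quantile normalization (adjusted p = 0.0796), with array medians subtracted (0.0579) and in 9 of 12 array omissions (up to 0.187). The 2 probesets with small changes were also the dimmest, and the part of dim readings in the difference was not tested.

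**Figure D2:**
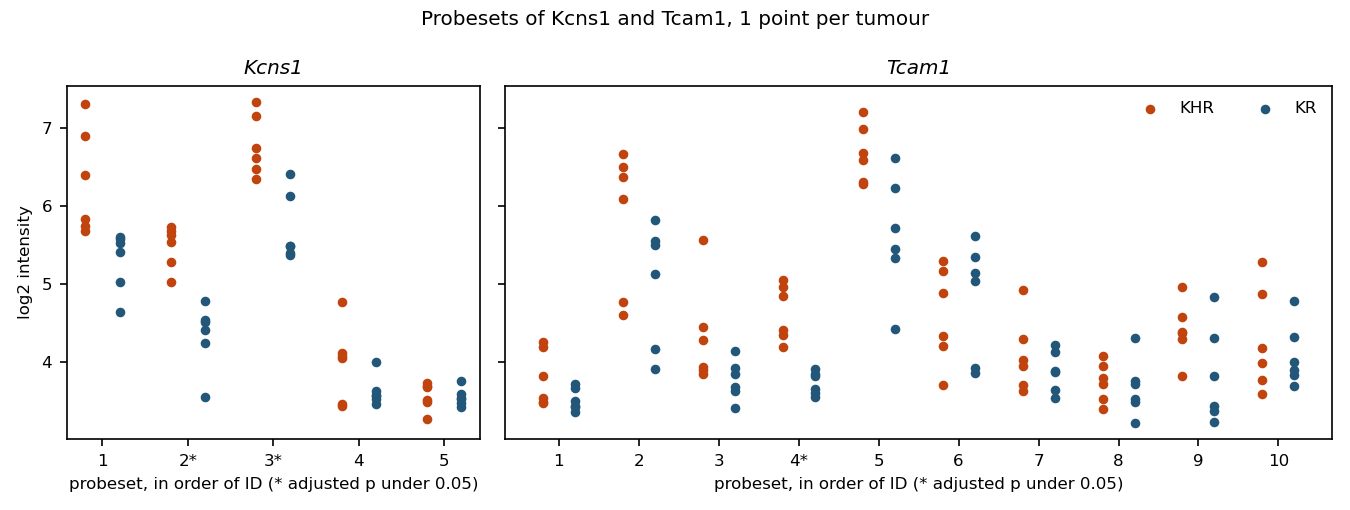
Log2 intensity (vertical axis) of each probeset of Kcns1 and Tcam1 in order of probeset ID, with KHR tumours left and KR tumours right at each position and 1 point per tumour. An asterisk marks an adjusted p under 0.05. Probesets 1 to 3 of Kcns1 have the larger changes, while 4 and 5 read low in both groups and differ less. Of the 10 Tcam1 probesets only number 4 has groups that do not overlap.

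Tcam1 levels were 4.12 at the lowest, 4.31 at the median and 4.93 at the highest in KHR tumours. The KR values were 3.62, 3.94 and 4.11. The groups did not overlap, but the gap between the lowest KHR array (KHR 6) and the highest KR array (KR 3) was narrow, and KHR 3 stood apart at the top. The means were 4.38 ± 0.28 in KHR tumours and 3.91 ± 0.18 in KR tumours (SD, n = 6 each). The log2 change was 0.47 ± 0.13 (SE; 95% confidence interval 0.19 to 0.75; adjusted p = 0.0675). Without KHR 3 it was 0.36 (adjusted p = 0.0902). The call depends on the summary: Tcam1 passed when its probesets were averaged (0.44, adjusted p = 0.0126) or median-polished (0.45, adjusted p = 0.0174), and also with a moderation that follows the trend of variance with level (adjusted p = 0.0474).

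Of its 10 probesets, 9 were higher in KHR tumours and 1 was lower, with changes between -0.22 and 1.04. Over all probesets 51.7% were higher. Probeset 17257572 passed, as did 1.02% of all probesets. It read 4.20 at the lowest, 4.63 at the median and 5.06 at the highest in KHR tumours, against 3.56, 3.74 and 3.92 in KR tumours, a change of 0.90 ± 0.17 (SE; adjusted p = 0.0255). All of its KHR readings lay above all KR readings, which held for 1.09% of all probesets. Probeset 17257573, the brightest of the gene, differed by 1.04 ± 0.32 (adjusted p = 0.152), with KHR readings of 6.28 to 7.20 and KR readings of 4.43 to 6.61 that overlapped through KR 5. The test for unequal change gave no call (adjusted p = 0.424).

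Calls of single probesets were few and rested on the full set of arrays. Of the 68 probesets, 3 passed, all higher, 2 of Kcns1 and 1 of Tcam1, while 1.02% of all probesets passed in either direction. Mean readings of 58 of the 68 were at or below 5.64, the 95th percentile of receptor probesets. Of those that passed, 17394104 (mean 4.91) and 17257572 (mean 4.19) lay below that line and 17394105 (mean 6.25) above it. For Kcns1, fewer than 2 passed in 11 of 12 array omissions: both were kept only without KR 1, and none was left without KHR 3 or KHR 6. A single Kcns1 probeset also passed with quantile normalization, array medians subtracted, the moderation with trend or the muscle covariate. The Tcam1 probeset no longer passed without any 1 of 6 arrays (KHR 3, KHR 5, KR 2, KR 3, KR 5 or KR 6). It was also lost with the Xist level or the muscle mean as a covariate. The replicate block left no probeset of either gene past the test. In the other direction no probeset passed.

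**Figure D3:**
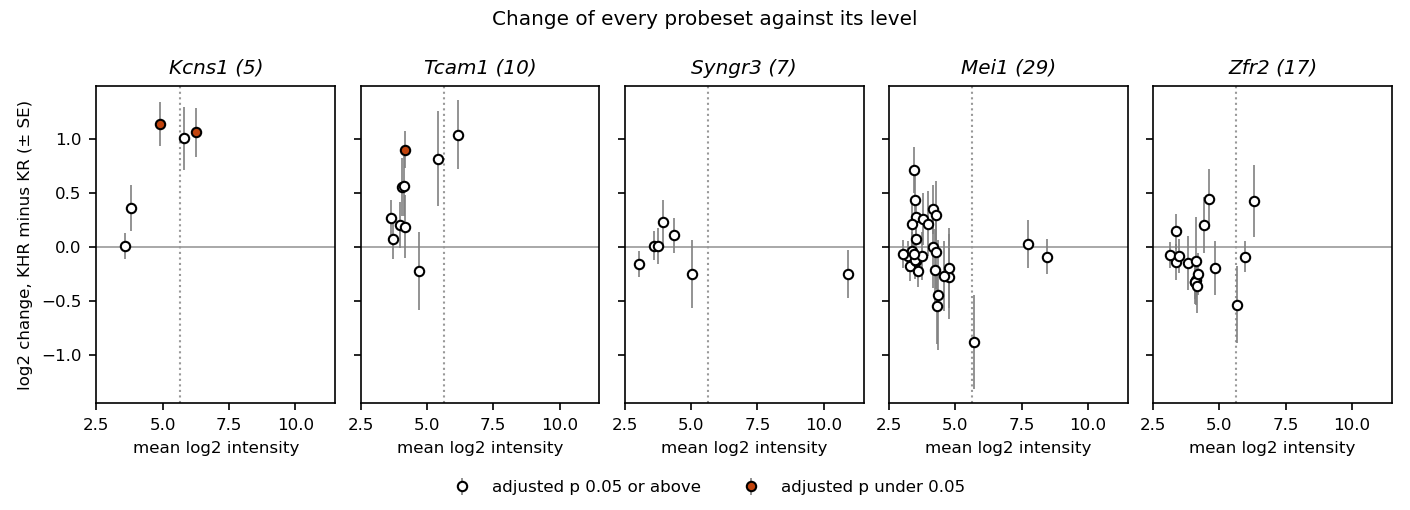
Log2 change, KHR minus KR, with its SE (vertical axis) against the mean log2 intensity over all 12 arrays (horizontal axis) for every probeset, 1 panel per gene with the number of its probesets in brackets. Filled points passed at an adjusted p under 0.05, and the dotted line is the 95th percentile of receptor probesets (5.64). The changes of Kcns1 reach 1.14 and those of Tcam1 1.04, and the points of the other genes lie on both sides of 0.

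Syngr3 levels were 3.69 at the lowest, 4.01 at the median and 4.49 at the highest in KHR tumours. They were 3.59, 3.98 and 4.24 in KR tumours. The groups overlapped almost entirely. The change was 0.08 ± 0.15 (SE; 95% confidence interval -0.23 to 0.39; adjusted p = 0.860), and its sign turned when probesets were averaged or median-polished (-0.0405 and -0.041). Of the 7 probesets, 4 were higher and 3 lower in KHR tumours, none past the test. Probeset 17341986 read far above the others, at 10.58 to 11.14 in KHR tumours and 10.64 to 12.03 in KR tumours, and differed by -0.25 ± 0.22 (adjusted p = 0.704). The other 6 probesets had mean readings from 3.03 to 5.02.

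Mei1 levels were 3.64 at the lowest, 3.77 at the median and 4.03 at the highest in KHR tumours, and 3.66, 3.72 and 3.91 in KR tumours. The KR range lay within the KHR range. The change was 0.05 ± 0.09 (SE; 95% confidence interval -0.13 to 0.24; adjusted p = 0.845), and -0.0362 with the mean over probesets. Of the 29 probesets, 11 were higher and 18 lower in KHR tumours, none past the test, with changes between -0.88 and 0.71. The brightest, 17313467, averaged 8.41 ± 0.28 in KHR tumours and 8.50 ± 0.23 in KR tumours (SD, n = 6 each), a change of -0.09 ± 0.16. The next, 17313475, differed by 0.03 ± 0.22.

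Zfr2 levels were 3.70 at the lowest, 3.96 at the median and 4.37 at the highest in KHR tumours. In KR tumours they were 4.11, 4.26 and 4.52. Of the KHR arrays 4 lay below every KR array, while KHR 5 and KHR 6 lay among them. The change was -0.27 ± 0.12 (SE; 95% confidence interval -0.52 to -0.03, unadjusted; adjusted p = 0.255). With the mean over probesets it was -0.10 and with median polish -0.16, and it passed under none of the alternatives or array omissions tried (adjusted p from 0.105 to 0.506). Of the 17 probesets, 13 were lower and 4 higher in KHR tumours, and the smallest adjusted p among them was 0.406. The probeset with the highest mean reading, 17235608, averaged 6.52 ± 0.72 in KHR tumours and 6.09 ± 0.55 in KR tumours (SD, n = 6 each).

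The 5 genes did not vary as 1 block among tumours of the same group. Over the 12 arrays, the Pearson correlations of their deviations from the group means ran from -0.49 to 0.50 over the 10 pairs, a description in which all points share the arrays. By the same measure, among 19400 other genes with at least 3 probesets, the closest to Kcns1 were Pask (0.88) and 2610027K06Rik (0.84), and the closest to Tcam1 were Rgs4 (0.92) and Lgi3 (0.91). For Syngr3 they were Olfr98, an odorant receptor gene, and Rarg (0.90 and 0.88), for Mei1 Serpina5 and Capza3 (0.89 and 0.88), and for Zfr2 Rlf and Nbdy (0.94 and 0.93). None of these 10 genes passed between the groups (lowest adjusted p 0.125). They were picked as the highest of 19400 correlations over 12 arrays. Values this high can arise among unrelated genes, and whether these exceed that was not tested.

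Genes related to each of the 5 were read from lists by family or process. Among 10 measured relatives of Kcns1, the electrically silent Kv subunits and the Kv2 partner Kcnb2, none rose and 1 fell: Kcnv1, a silent subunit of brain Kv channels, averaged 6.73 ± 0.14 in KHR tumours and 7.16 ± 0.13 in KR tumours (SD, n = 6 each), a change of -0.42 ± 0.09 (SE; adjusted p = 0.0202). The nearest relative by name, Kcns2, differed by -0.23 ± 0.11 and Kcng3 by 0.25 ± 0.12, neither past the test. The list's median change was -0.06. Of the 10, 8 had mean levels at or below 5.12, the 95th percentile of receptor genes. Over all genes, 3.74% passed in either direction. Of 4 ICAM genes none passed (median change -0.01), and 3 of them lay at or below 5.12. Icam1, the leukocyte adhesion ligand, averaged 6.62 ± 0.44 in KHR tumours and 6.63 ± 0.47 in KR tumours. Icam2 and Icam5 differed by -0.28 ± 0.13 and 0.02 ± 0.08. None of 7 synaptogyrin and synaptophysin relatives of Syngr3 passed (median change 0.07), and 5 of the 7 lay at or below 5.12. The widely expressed Sypl differed by 0.13 ± 0.08 and Syngr1 by -0.22 ± 0.12. None of 3 relatives of Zfr2 with the same DZF domain passed, with Strbp, a spermatid RNA-binding protein gene, at 0.36 ± 0.11 (adjusted p = 0.102) and Ilf2 at 0.26 ± 0.13.

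Around Mei1, 2 of 13 measured genes of meiotic double-strand breaks rose and none fell, with a median change of 0.07. The share of all genes that passed as higher in KHR tumours was 2.71%. Zcwpw1, a histone reader at recombination sites, rose by 3.31 ± 0.12 (SE; adjusted p = 1.18e-09). Iho1, a partner of the break-forming machinery on chromosome axes, averaged 5.98 ± 0.36 in KHR tumours and 4.76 ± 0.17 in KR tumours (SD, n = 6 each), a rise of 1.22 ± 0.15 (adjusted p = 0.000697). Spo11, the break-forming enzyme, differed by -0.01 ± 0.10, Mei4 by -0.10 ± 0.09 and Rec114 by 0.07 ± 0.10, none past the test. Of the 13, 8 had mean levels at or below 5.12, the 95th percentile of receptor genes, with Spo11, Mei4 and Rec114 among them.

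The nearest measured genes on the chromosome did not pass for any of the 5. Of 20 neighbours, 2 on each side of each gene in RefSeq order, none passed, with changes from -0.57 to 0.54 and a lowest adjusted p of 0.0840. Beside Kcns1, Stk4 differed by 0.54 ± 0.17 (adjusted p = 0.104) and Tomm34 by 0.15 ± 0.13 on one side, and the protease inhibitor genes Wfdc5 and Wfdc12 by -0.25 ± 0.15 and -0.57 ± 0.19 on the other. Beside Tcam1, Smarcd2 differed by 0.38 ± 0.12 (adjusted p = 0.109), Psmc5 by -0.39 ± 0.11 (adjusted p = 0.0840), Gh by 0.10 ± 0.10 and Cd79b by 0.16 ± 0.09. The neighbours of Syngr3 were Zfp598, Npw, Gfer and Noxo1, those of Mei1 were 4930407I10Rik, Snu13, Ccdc134 and Srebf2, and those of Zfr2 were Atcay, Nmrk2, Matk and Mrpl54. The annotation places a long non-coding RNA over part of Kcns1, and its own level was not analysed here.

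The other genes known to be high in human HPV-positive cancers, mostly those of replication, the cell cycle and cohesin, gave a different count. Of 19 measured, 13 rose and none fell, with a median change of 0.94. Over all genes, 2.71% passed as higher in KHR tumours. The list was chosen with earlier results of these data known, so its count may owe in part to that choice. The 13 were Stag3, Prim1, Mcm6, Lig1, Mcm7, Mcm2, Ccne2, Tyms, Cenpk, Smc1b, Rpa2, Cdc7 and E2f2, with changes from 0.53 to 4.37 (adjusted p up to 0.0482). The 6 that did not pass included Cdkn2a at -0.81 ± 0.31 (SE; adjusted p = 0.210) and Sycp2, a synaptonemal complex gene, at -0.01 ± 0.10. Sycp2 also stands among the germ cell markers below, so germ cell role does not cleanly separate this list from the 5 genes. Cdkn2a encodes p16, and its value is the median of 7 probesets that were not assigned to single transcripts. The clinical marker of human HPV-positive tumours is the p16 protein, which these RNA levels do not measure. The others that did not pass were E2f1 (0.47), Rfc4 (0.78), Mybl2 (0.44) and Cdkn2c (0.36). Whether the 2 groups of genes differ was not tested.

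**Figure D4:**
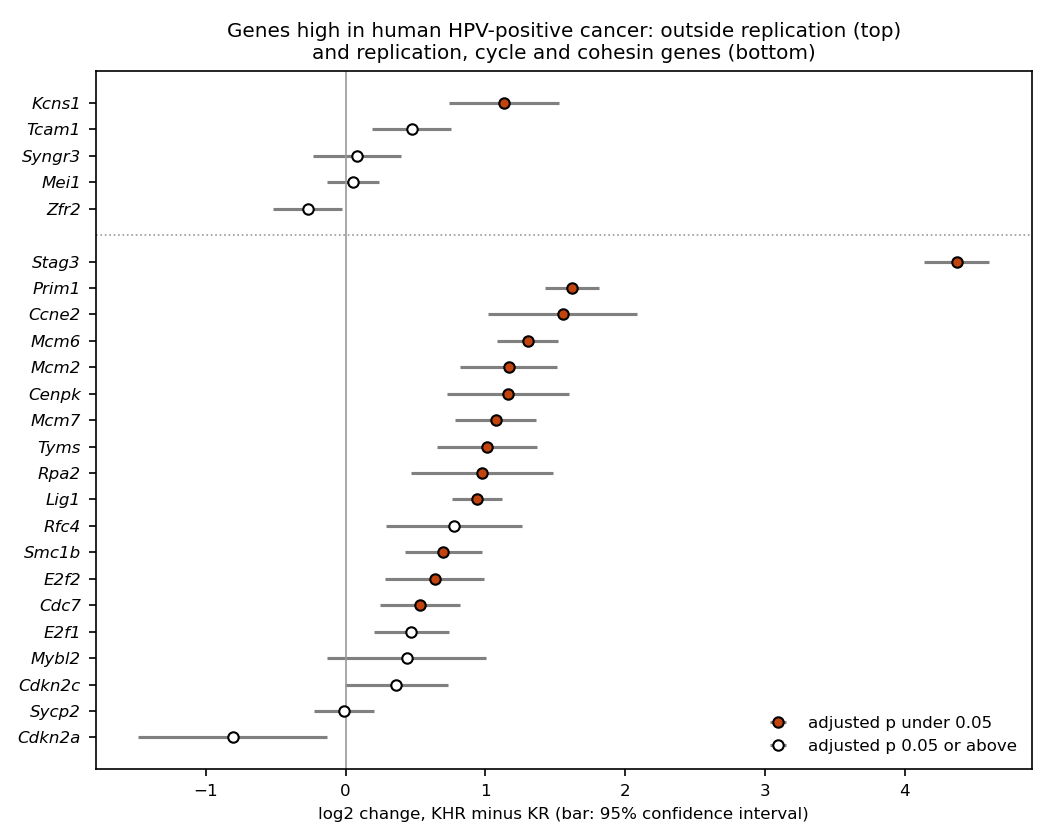
Log2 change, KHR minus KR, with its 95% confidence interval (horizontal axis) for the 5 genes outside replication (top) and 19 other genes, mostly of replication, cycle and cohesin (bottom), in order of change within each set. Filled points passed at an adjusted p under 0.05. Kcns1 at 1.13 is the 1 filled point of the top set, against 13 in the bottom set. Both sets were chosen with earlier results of these data known.

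Other cell types are a further measure beside these results, since in bulk tumour RNA more cells of a type and more RNA per cell cannot be told apart. For the counts below, 2.71% of all genes passed as higher in KHR tumours. Of 15 neuronal and neuroendocrine markers 1 passed, the neurofilament gene Nefl, higher by 1.28 ± 0.30 (SE; adjusted p = 0.0294). The list mean ran from 4.75 to 4.92 in KHR tumours and from 4.70 to 4.81 in KR tumours, and 11 of the 15, among them Snap25, Syt1 and Chga, lay at or below 5.12. Of 8 Schwann cell markers none passed (5.11 to 5.29 in KHR and 5.19 to 5.38 in KR tumours), and 5 of the 8 lay at or below 5.12. Of 15 germ cell markers 2 rose, Tdrd1 by 2.84 ± 0.21 and Rbm46 by 2.69 ± 0.31. The median change of the 15 was 0.05. The germ cell mean ran from 4.56 to 4.79 in KHR tumours, above the 4.18 to 4.43 of KR tumours, and this gap rests mostly on those 2 genes. Over the other 13, of which 6 were higher and 7 lower, the means were 4.35 in KHR tumours and 4.28 in KR tumours. Of the list, Dazl, Ddx4 and Tex101 were among the 12 at or below 5.12. The part of germ or neural cells in the rise of Kcns1 was not tested.

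Skeletal muscle was uneven between tumours: the mean of 15 muscle markers ran from 5.67 to 8.05 in KHR tumours and from 5.59 to 6.86 in KR tumours, and none of the 15 passed. With that mean as a covariate, Kcns1 differed by 1.12 (adjusted p = 0.0117) and Tcam1 by 0.45 (adjusted p = 0.147). Of 9 leukocyte markers none passed, with list means of 6.28 to 6.63 in KHR tumours and 5.95 to 6.39 in KR tumours. With the level of Xist as a covariate, Kcns1 differed by 1.16 (adjusted p = 0.00819) and Tcam1 by 0.48 (adjusted p = 0.116). The genes called over all genes numbered 555 with this covariate, against 863 without it. Whether the sexes of the mice were balanced between the groups was not tested.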

How the data were processed

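Total RNA from 12 tumours was measured on Affymetrix mouse gene arrays read by exon probeset. The deposited values are log2 intensities. The submitters' processing notes name Partek, while how background and scaling were handled, and the genome build, is not given in the sources used here. The base of the logarithm was read from the range of the values, and array medians lay between 5.62 and 5.75. Depth has no counterpart here, and precision is set by how few arrays there are (6 against 6). No 2 arrays correlated above 0.97.

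Probesets with several symbols (5106) or none (30892) were left out, and 2247 older symbols were updated through RefSeq names (GRCm38.p6). Gene values, single probesets and unequal change among probesets were tested with limma 3.58.1 in R 4.3.3 (lmFit, eBayes, diffSplice), two-sided, over all 12 arrays without covariate and without filter, with Benjamini-Hochberg adjustment over all genes or probesets and a threshold of 0.05. The scripts were tested on simulated data. Other tables used Python 3.11.15 and pandas 2.3.3.

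Members and gene lists were chosen with earlier results of these data known. Of each list of relatives, the genes that passed and the 2 with the smallest p were named, and further genes were named for their role after their values were seen. Alternatives were other probeset summaries and scalings, filters, moderation, array weights, covariates, a replicate block and leaving out each array.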

Additional observations from a re-analysis of the deposited data

Results flagged for a closer look

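Among the KHR tumours, the Tcam1 level of KHR 3 stood far from the others, at 4.93 against 4.36 for the next, a gap of 0.706 of the group's range, which is above Dixon's limit for 6 samples. Without KHR 3 the change was 0.36 (adjusted p = 0.0902). This was the 1 such value in 22 groups of 6 looked at (the 5 genes and 6 marker lists), and chance gives about 1 in 20.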

How the results depend on the processing

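Kcns1 kept its direction and its call under all 10 alternatives that gave a value (0.58 to 1.16, adjusted p up to 0.0160) and all 12 array omissions. Tcam1 kept its direction throughout and passed with the mean over probesets (0.44), median polish (0.45), moderation with trend and robust (0.47) and the replicate block (0.47, adjusted p = 0.0319). It passed under none of the array omissions (0.36 to 0.52). Zfr2 never passed. Syngr3 turned its sign with the mean over probesets (-0.0405), median polish (-0.041) and without KHR 1 (-0.0077, the lowest of the omissions, which reached 0.15), and Mei1 with the mean over probesets (-0.0362). With the replicate block, which also left no single probeset of the 5 genes past the test, the change of Kcns1 was 1.13 (adjusted p = 0.0160). The replicate numbers are not shown to pair the tumours: same-numbered deviations correlated by -0.003 to 0.234, over 0.1 for 2 of 6 numbers, and 1 KHR and 2 KR tumours correlated best with their own number. The filter on genes above the median level left none of the 5, so it gave no value for them. The genes called over all genes numbered 1445 with the mean over probesets and 555 with Xist as a covariate, against 863, and from 523 (without KHR 4) to 1085 on leaving out 1 array. The alternatives for unequal change among Kcns1 probesets were chosen after seeing the data. Its adjusted p was 0.0796 with quantile normalization, 0.0579 with array medians subtracted and 0.0300 to 0.187 on leaving out 1 array. Where calls changed, the cause was not tested. None of the 5 genes had a mean level above the median of all genes, and the size of a change at such levels is not exact. The part of low signal in these sizes was not tested.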

Other observations

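Within Mei1, probeset 17313479 read 3.87 and 3.96 in KHR 3 and KHR 4, while the remaining KHR tumours read 5.62 to 6.71 and the KR tumours averaged 6.15 ± 0.41 (log2 intensity; SD, n = 6). Its change of -0.88 ± 0.44 (SE, adjusted p = 0.421) thus rests on 2 tumours. This probeset was chosen after its values were seen.

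Also chosen after its values were seen, Mei1 probeset 17313472 averaged 3.79 ± 0.54 in KHR tumours and 3.08 ± 0.05 in KR tumours (SD, n = 6 each), the largest positive change among the 29 (0.71 ± 0.22, adjusted p = 0.151).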
